A study of Mus musculus with 4 samples.

Results

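The genes described here are Ccr2, the receptor by which monocytes leave the bone marrow and enter inflamed tissue and tumors, and Ccl2, Ccl7, Ccl8 and Ccl12, 4 CC chemokines that attract monocytes. They were taken by name, with earlier results of these data known, and are 5 of the 19059 genes measured. Each was followed across myeloid, lymphoid and stromal cells of mouse tumors in 4 single-cell libraries. Chemokines are small secreted proteins that bind G protein-coupled receptors on moving cells. CCL2, CCL7 and CCL12 are known ligands of mouse CCR2, and mouse CCL8 is best known as a ligand of CCR8. Monocytes that enter a tumor become macrophages, and CCR2 is known to fall as they do, while macrophages, mast cells and fibroblasts are known sources of CCL2.

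The mice were B-hCTLA-4 animals, which carry a humanized CTLA-4 gene, on the host strain C57BL/6, and all bore subcutaneous MC38 tumors, a transplanted colon carcinoma, grown from 500000 cells. Treatment began at about 100 mm3 and was given intraperitoneally 3 times. The isotype control group received 10 mg/kg of hIgG1. The combination group received 10 mg/kg of ipilimumab, a human IgG1 against human CTLA-4, and 20 mg/kg of AT130-2, an anti-mouse FcgRII of mIgG1 with the N297A change in its Fc part. For each of the other two libraries the sample title and the treatment field name different antibodies, so which of them was given ipilimumab was not settled. Single antibody A is the library whose title names anti-human CTLA-4 and whose treatment field names anti-mouse FcgRII, and in single antibody B these are exchanged. The sample records give 11 mice pooled into each library and day 8 after the first dose, and the article gives other numbers of tumors, doses, starting size and day. The age of the mice was not given in the sources used here.

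Viable CD45+ cells were sorted, fixed and hybridized with gene probes by the Chromium Flex method. It counts each captured probe product as a unique molecular identifier (UMI). There was 1 library for each group, so no test between groups was possible, and a difference between treatments cannot be told apart from a difference between libraries. Intervals below are 95% intervals for counting error only. Between 5779 and 7741 cells per library were kept, 26785 in all, from 6097 to 8173 deposited, and the median depth of the deposited cells was between 14836 and 19115 UMIs. No full cell barcode was shared by libraries, and 4461 of 23366 droplet barcodes (19.1%) occurred in more than 1 library. Cells were clustered again without the 5 genes, and 27 clusters were named from marker genes as monocyte-like, macrophage-like and so on, written below without the ending. A cluster of 2204 cells with both T cell and macrophage markers was left out of these classes, and it was the smallest in single antibody A with 253 cells and the largest in isotype control with 842. A cluster led by collagen genes is called stromal or tumor cells. Its level of Ptprc, which encodes CD45, was 11.2 to 21.3 UMIs for each 1000000 UMIs, against 503 to 601 in macrophages, so its cells went against the sort.

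The 4 chemokine genes lie in the same orientation within 81.2 kb of chromosome 11 (GRCm38). Ccl2 (ENSMUSG00000035385) spans chr11:82035571-82037453, Ccl7 (ENSMUSG00000035373) chr11:82045712-82047525, Ccl12 (ENSMUSG00000035352) chr11:82101845-82103400 and Ccl8 (ENSMUSG00000009185) chr11:82115185-82116799, all on the plus strand. Ccr2 (ENSMUSG00000049103) lies at chr9:124101950-124113557, on the plus strand. Ccl8 and Ccl12 lie next to each other and peaked in different macrophage clusters, so the 250 bases before their starts are shown, from RefSeq on GRCm38.p6, at chr11:82114935-82115184 and chr11:82101595-82101844. Capitals mark the TATA motif.
Ccl8: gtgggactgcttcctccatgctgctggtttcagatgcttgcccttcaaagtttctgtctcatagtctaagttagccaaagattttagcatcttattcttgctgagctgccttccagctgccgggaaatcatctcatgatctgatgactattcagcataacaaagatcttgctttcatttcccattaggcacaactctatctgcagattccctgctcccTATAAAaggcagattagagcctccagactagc
Ccl12: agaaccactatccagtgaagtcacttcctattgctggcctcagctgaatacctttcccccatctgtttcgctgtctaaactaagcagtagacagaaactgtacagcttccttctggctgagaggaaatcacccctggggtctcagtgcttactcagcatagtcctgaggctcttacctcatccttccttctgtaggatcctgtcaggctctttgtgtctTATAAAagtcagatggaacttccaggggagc
RefSeq sequence was at hand for 3 of the 5 genes, Ccl8, Ccl12 and Ccr2. The motif TATAAA, read on both strands, ended 27 bases before the start of Ccl8 and 26 bases before that of Ccl12, was not found in the same window of Ccr2, and is held by 12.4% of 32851 promoter windows of this length. The letters GAAANNGAA, part of the response element of interferon-stimulated genes, are held by 7.13% of the windows and lie once in that of Ccr2, read on the minus strand, ending 78 bases before its RefSeq start. The letters TTCNNNGAA, the GAS motif, are held by 7.02% of them, the AP-1 motif TGANTCA by 6.75% and GGGANTTTC, letters of the kappa B motif, by 0.941%. None of these last motifs was found in the 3 windows, and GAAANNGAA was not found in those of Ccl8 and Ccl12, which says only that these letters are not there. The Ccr2 window, chr9:124101933-124102182, begins before the gene span given above but lies mostly within it, and its GAAANNGAA match lies within that span.

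A level is the sum of a gene's UMIs in all cells of a class for each 1000000 UMIs of that class (CPM), and levels are compared between classes and libraries for the same gene, not between genes. Ccl2, the best known attractant of monocytes, had its highest mean over the libraries in mast cells and basophils, with 730 CPM in isotype control, 719 in single antibody A, 705 in single antibody B and 718 in the combination, a narrow range. Stromal or tumor cells followed with 452, 729, 512 and 889 CPM in the same order of libraries, and macrophages with 282, 444, 294 and 403 CPM. The ranges of stromal or tumor cells and of mast cells and basophils overlapped, whereas mast cells and basophils lay above macrophages in every library. Monocytes had 169 to 234 CPM, dendritic cells 17.0 to 91.7 CPM and natural killer (NK) cells with ILC1 15.6 to 63.7 CPM. Most Ccl2 UMIs still lay in macrophages, which were far more numerous. Of 190255 in all, macrophages held 132642, stromal or tumor cells 16937 and the 147 mast cells and basophils 955.

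The Ccl2 of mast cells and basophils came from 1 of its 2 clusters. Cluster 24, 90 cells led by the mast cell proteases Mcpt2, Tpsb2 and Cma1, had 987, 888, 739 and 825 CPM in isotype control, single antibody A, single antibody B and the combination. There, 95% to 100% of the cells held a Ccl2 UMI, and the median cell held 7.5 to 8.0. Cluster 25, 57 cells led by the basophil genes Mcpt8, Cd200r3 and Gata2, had only 3 UMIs of Ccl2, all in isotype control. It had 0 UMIs of Ccl7 in the 4 libraries, but 417 to 533 CPM of Ccr2. Only 3 of its cells were in single antibody B, and in the combination 1 of 11 cells held 12 of the 23 Ccr2 UMIs. Cluster 24 in turn had 3.45 to 24.5 CPM of Ccr2. The ligand and the receptor were thus split between these clusters.

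Ccl7, which shares receptors with Ccl2, had a similar order of classes. Mast cells and basophils had 571, 481, 373 and 403 CPM in isotype control, single antibody A, single antibody B and the combination, and macrophages had 307, 497, 292 and 444 CPM. These ranges overlapped. Stromal or tumor cells, with 153 to 277 CPM, lay below macrophages in each library, the reverse of their order for Ccl2. In single antibody A 1 of 76 stromal or tumor cells carried 2588 of the 5277 Ccl2 UMIs (49.0%), and in the combination 1 of 64 carried 1454 of 5747 (25.3%), against 298 of 1571 for the top cell of isotype control and 494 of 4342 for that of single antibody B. Without these cells the Ccl2 levels of this class were 381 CPM in isotype control, 380.3 in single antibody A, 464 in single antibody B and 677 in the combination.

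Ccl12, an MCP family chemokine of the mouse, was a macrophage gene in these cells. Macrophages had 573 CPM in isotype control, 820 in single antibody A, 481 in single antibody B and 506 in the combination, above the 108 to 179 CPM of monocytes. Stromal or tumor cells had 3.06 to 21.6 CPM and mast cells and basophils at most 10.2 CPM, although both classes were rich in Ccl2. Macrophages held 79.3% of all Ccl12 UMIs, with 65.4% of all UMIs in the data. The neutrophil values of 59.4 to 588 CPM came from few cells, since 104 of 123 Ccl12 UMIs in isotype control and 207 of 215 in single antibody A lay in a single cell.

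Ccl8 was a macrophage gene as well, and macrophages held 81.3% of its UMIs. Macrophages had 61.8, 188, 61.0 and 205 CPM in isotype control, single antibody A, single antibody B and the combination, so single antibody A and the combination stood above the other two libraries. Monocytes had 2.89, 29.8, 14.0 and 18.8 CPM in the same order, with the lowest value in isotype control. In monocytes of single antibody B 1 cell held 54 of the 74 Ccl8 UMIs, and in single antibody A 1 cell held 92 of 213. Without the cell with the most Ccl8 UMIs in each library the levels were 2.35, 17.0, 3.82 and 14.4 CPM. Stromal or tumor cells had at most 4.95 CPM.

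Ccr2 was highest in monocytes and in NK cells with ILC1. Monocytes had 1168 CPM in isotype control, 982 in single antibody A, 1185 in single antibody B and 649.9 in the combination. NK cells with ILC1 had 912, 950.4, 1011 and 988 CPM, a range that lay within that of monocytes. Macrophages had 662, 437, 509 and 249.4 CPM, dendritic cells 232 to 488 CPM and T cells 261 to 530.4 CPM, 3 ranges that overlapped. Stromal or tumor cells had 8.25 to 30.5 CPM. Of all Ccr2 UMIs, 62.7% lay in macrophages, 11.9% in monocytes and 4.06% in NK cells with ILC1, classes that hold 65.4%, 5.73% and 2.00% of the UMIs of all genes.

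**Figure D1:**
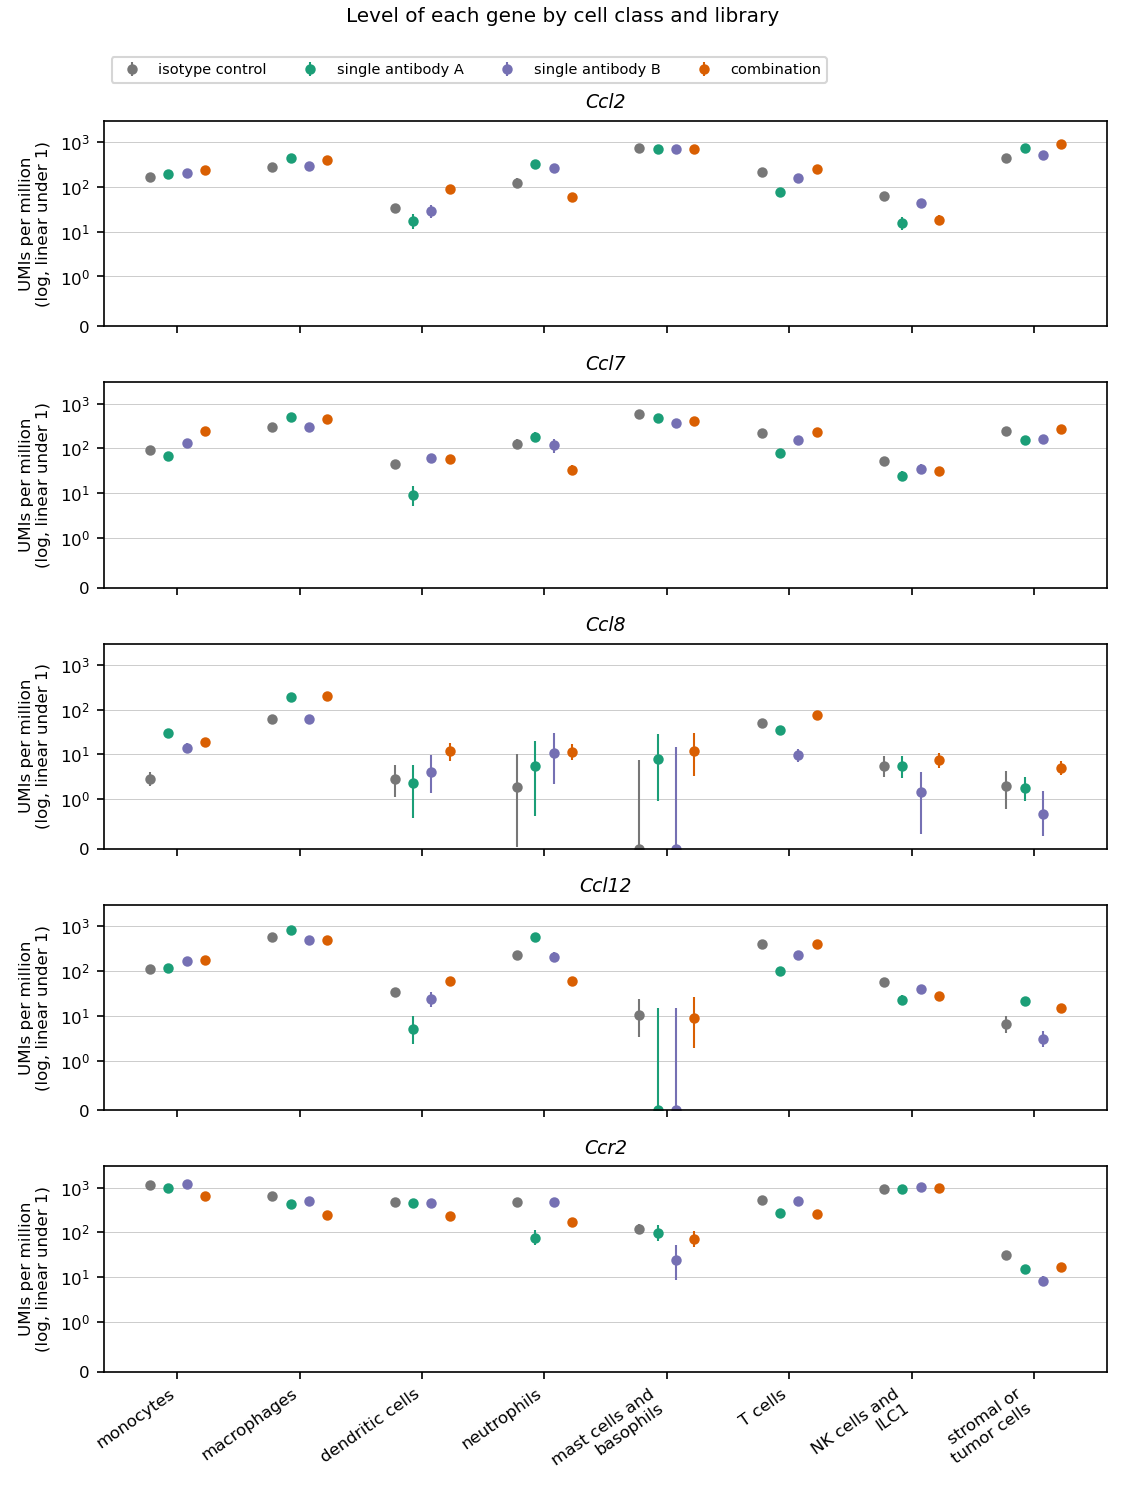
UMIs per 1000000 of each gene (vertical axis, logarithmic and linear under 1) in 8 cell classes (horizontal axis) for the 4 libraries, with exact Poisson intervals that cover counting error only. Ccl2 and Ccl7 are high in mast cells and basophils and in stromal or tumor cells as well as in macrophages, Ccl8 and Ccl12 are low in the former classes, and Ccr2 of the combination lies lowest in monocytes, macrophages and dendritic cells.

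The ligands were also detected in T cells and in NK cells with ILC1, at lower levels in those with little macrophage RNA. T cells had 78.9 to 250.2 CPM of Ccl2 and 101 to 399 CPM of Ccl12, and the genes of the macrophage marker list summed to 7902 to 19487 CPM in T cells against 32497 to 40585 CPM in macrophages. In T cells with under 1% of their UMIs on that list Ccl2 was 6.66 to 29.0 CPM and Ccl12 was 13.3 to 52.3 CPM. Ccr2 of the same T cells was 238 to 509 CPM, 0.788 to 1.09 times its level in all T cells, and in NK cells with ILC1 it was 945 to 1031 CPM. T cells and NK cells with ILC1 that had little macrophage RNA thus kept Ccr2 and had little of the ligands.

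Among the macrophage clusters Ccl2, Ccl7 and Ccl12 had their highest mean over the libraries in cluster 11, and Ccl8 had its highest in another. Cluster 11, led by the interferon-induced genes Ifit3, Cmpk2 and Rsad2, had the highest Ccl12, with 1507, 1762, 1438 and 1092 CPM in isotype control, single antibody A, single antibody B and the combination. It also had the highest mean of Ccl7 over the libraries, 759 CPM, followed by cluster 12, led by the DNA replication genes Uhrf1, Ung and Ccne2, with 718 CPM. Ranges of Ccl7 in these clusters over the libraries overlapped, 642 to 959 and 479 to 959 CPM. Mean Ccl2 was 619 CPM in cluster 11 and 581 CPM in cluster 12. Its ranges overlapped as well, 522 to 776 and 403 to 743 CPM. Cluster 0, led by Cbr2, Fcrls and Gas6, was the third for both Ccl7 and Ccl12, with 335 to 815 CPM and 516 to 1108 CPM.

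Ccl8 had another peak. Cluster 23, led by Retnla, Saa3 and Lyve1, held 148 cells and had 259, 1331, 481 and 689.9 CPM in isotype control, single antibody A, single antibody B and the combination, the highest mean of all clusters. Its Ccl8 lay in few cells, since 1 cell held 71 of 169 UMIs in isotype control, 336 of 1638 in single antibody A, 149 of 335 in single antibody B and 138 of 418 in the combination. Without these cells the levels were 159.7, 1094, 285 and 476 CPM. Cluster 15, led by the metalloelastase Mmp12 and by Gpnmb and Cd36, followed with 149, 578, 134 and 437 CPM. Cluster 9, led by Thbs1, Spp1 and Fn1, had only 2.63 to 22.2 CPM of Ccl8, but 340 to 607 CPM of Ccl2.

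Ccr2 was uneven among macrophages as well. Cluster 9 had 1460, 1296, 1258 and 772 CPM and cluster 4, led by Ifitm1, Slc4a11 and Mgl2, had 1454, 1227, 1352 and 640.5 CPM in the same order of libraries. The monocyte cluster 5, led by Plac8 and Chil3, had 1396, 1172, 1256 and 685 CPM, a range that overlapped with both. Whether cells like those of cluster 9 were named macrophages depended on the clustering. At a lower resolution and with no integration, the cluster led by Thbs1 was also led by Chil3 and Plac8 and was named monocytes. At a higher resolution, and with Ccr2 and the ligands kept among the features, a cluster led by Thbs1, Spp1 and Fn1 was named macrophages. Cluster 15, the second for Ccl8, had the lowest mean Ccr2 of the macrophage clusters, with 167, 130.04, 165 and 52.1 CPM. Cluster 23 was high for both Ccl8 and Ccr2, with 683 to 1673 CPM of Ccr2.

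**Figure D2:**
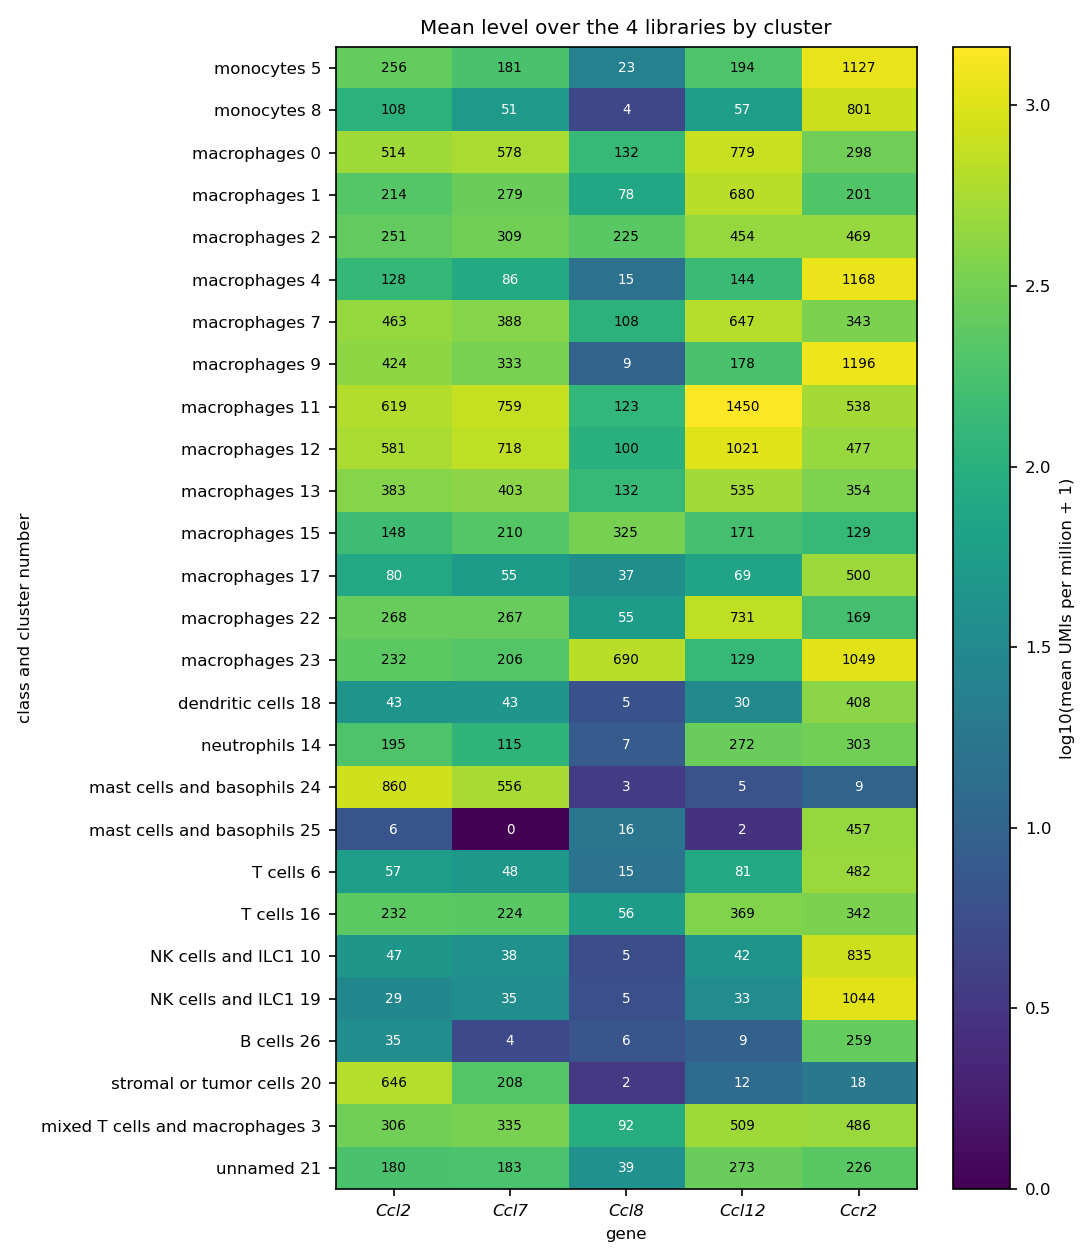
Mean over the 4 libraries of each gene's UMIs per 1000000 (numbers, with colour on a log10 scale) in 27 clusters (rows, with class and cluster number) for the 5 genes (columns). Ccl12 reaches 1450 in macrophage cluster 11, Ccl8 peaks at 690.0 in cluster 23, Ccl2 at 859.8 in mast cell cluster 24, and Ccr2 is over 1000 in clusters 4, 5, 9, 19 and 23.

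Over the 16 clusters of monocytes, macrophages and dendritic cells in 4 libraries, 64 points, log2(CPM + 1) of Ccl2 and Ccl7 had a Pearson correlation of 0.90, that of Ccl7 and Ccl12 was 0.89 and that of Ccl2 and Ccl12 was 0.85. Ccl8 was less alike, with 0.47 to Ccl2, 0.61 to Ccl7 and 0.52 to Ccl12. Ccr2 went the other way from Ccl8, with -0.45, and less so from Ccl12, with -0.29, and Ccl7, with -0.23. It was near 0 with Ccl2, with -0.04. These are descriptions, since points of a library share its depth and treatment and points of a cluster share its cell type.

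Pairs of the genes were also followed in single cells. To set aside depth, the UMIs of each monocyte, macrophage and dendritic cell were drawn down to 6899, and shallower cells were left out, 354 to 775 per library. Ccl2 and Ccl7 were found in the same cell in 21.8% of cells in isotype control, 29.7% in single antibody A, 22.9% in single antibody B and 27.5% in the combination. These shares were 1.74, 1.64, 1.78 and 1.86 times the product of the 2 single shares. Taking the product within each cluster left 1.36 to 1.57 times. In the same order of libraries Ccl7 with Ccl8 was at 1.67, 1.60, 1.48 and 1.59 times the product. Ccl2 with Ccl12 was at 1.51, 1.46, 1.51 and 1.67 times. The ranges of these pairs overlapped, although over clusters Ccl8 was less alike to the other ligands. Ccl2 with Ccl8 was lower, at 1.18 to 1.34 times. Ccl8 and Ccr2 were found together in 4.34%, 5.92%, 2.69% and 5.76% of cells, 0.661, 0.539, 0.471 and 0.548 times the product, and 0.557 to 0.773 times within clusters. Cells with Ccl8 thus held Ccr2 less often than the single shares give, in all 4 libraries. Ccl7 with Ccr2 was at 0.781 to 0.880 times the product and Ccl12 with Ccr2 at 0.837 to 0.917 times. Within clusters these were 0.911 to 0.994 and 0.963 to 1.03 times. Ccl2 with Ccr2 was close to the product, at 0.933 to 0.991 times.

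**Figure D3:**
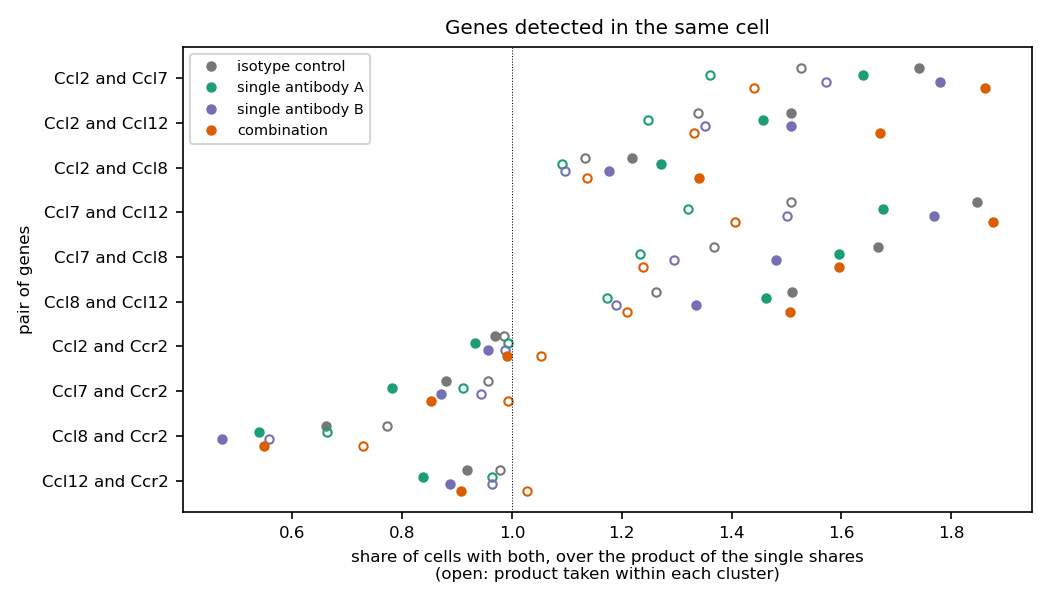
Share of monocytes, macrophages and dendritic cells with UMIs of both genes of a pair, divided by the product of the single shares (horizontal axis), for 10 pairs (vertical axis) and 4 libraries at 6899 UMIs per cell; open points take the product within each cluster. Pairs of ligands lie above 1, up to 1.88 for Ccl7 and Ccl12, and Ccl8 with Ccr2 lies at 0.471 to 0.661.

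Few macrophages made most of the ligand counts. The tenth of macrophages with the most Ccl8 UMIs held 93.8%, 86.6%, 94.1% and 82.7% of them in isotype control, single antibody A, single antibody B and the combination. For Ccl2 this part was 62.2% to 65.5%, and for Ccr2 it was 38.0%, 42.02%, 41.6% and 50.8%. The median macrophage held 8 Ccr2 UMIs in isotype control, 3 in single antibody A, 4 in single antibody B and 1 in the combination, although the median depth of macrophages was highest in the combination, at 22182 UMIs against 16953 in isotype control.

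Between libraries, the comparison asks how blocking FcgRII and CTLA-4, alone or together, went with the levels of these genes in monocytes, macrophages and dendritic cells as 1 class. Ccr2 was 712 CPM in isotype control, 480.4 in single antibody A, 545 in single antibody B and 280.0 in the combination, so that the combination lay below each single antibody and each single antibody below isotype control. The ratio to isotype control was 0.394 (0.388 to 0.399) in the combination, 0.675 in single antibody A and 0.765 in single antibody B. Ccl8 was 54.2, 171, 57.8 and 187 CPM, a ratio of 3.46 (3.36 to 3.56) in the combination, 3.16 in single antibody A and 1.07 in single antibody B. Ccl2 was 264, 416, 286 and 385 CPM, and Ccl7 was 278, 453, 280.3 and 424 CPM. For both, single antibody A and the combination were high and single antibody B lay close to isotype control. Their ratios in the combination were 1.46 (1.44 to 1.48) and 1.52 (1.502 to 1.546), in single antibody A 1.57 and 1.63, and in single antibody B 1.08 and 1.01. Ccl12 was 511, 748, 459 and 474 CPM, high only in single antibody A, with a ratio of 1.46 there and of 0.928 (0.917 to 0.939) in the combination. These comparisons share the isotype control library.

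At a ratio of at least 1.5, and among genes with at least 10 CPM in either library, 2 of the 5 genes were higher in the combination, Ccl7 and Ccl8, against 3.66% of 8747 genes, and 1 was lower, Ccr2, against 3.11%. In single antibody A, 3 of 5 were higher, Ccl2, Ccl7 and Ccl8, against 0.54% of 8696 genes, and 0 were lower, against 0.701%. In single antibody B, 0 of 5 were higher, against 0.597% of 8707 genes, and 0 were lower, against 2.1%. Scaled by size factors instead (median of ratios), every ratio of the combination rose by 0.12 on the log2 scale, and that of Ccl12 became 1.01, so no direction is given for Ccl12 in the combination. With the same factors Ccl2 of the combination, at 1.58, and Ccl12 of single antibody A, at 1.53, passed 1.5 as well. The shares of all genes given here are for CPM, so no count with size factors is set beside them.

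Ccr2 of the combination was lower in every cluster of these cells. It was below isotype control in 16 of 16 clusters, each beyond counting error, with ratios of 0.246 to 0.617. It was lower in 16 of 16 clusters in single antibody A, 15 of them beyond counting error. In single antibody B it was lower in 15 of 16, 13 of them beyond counting error, and higher beyond counting error in 1, with a ratio of 1.14. With the mix of clusters held as in isotype control, the ratio of the combination was 0.420. Ccl8 was higher in the combination in 16 of 16 clusters, 15 beyond counting error, with ratios of 1.13 to 10.3. The largest was that of monocyte cluster 5, where isotype control had only 2.23 CPM. Ccl2 was higher in 12 of 16 and Ccl7 in 12 of 16, and Ccl12 was higher in 7 and lower in 9. In single antibody A, Ccl8 was higher in 12 of 16 clusters, all beyond counting error. It was lower there in 4, 1 of them beyond counting error. The clusters are parts of the same libraries, so these counts are not replicates. No share of all genes is set beside them.

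**Figure D4:**
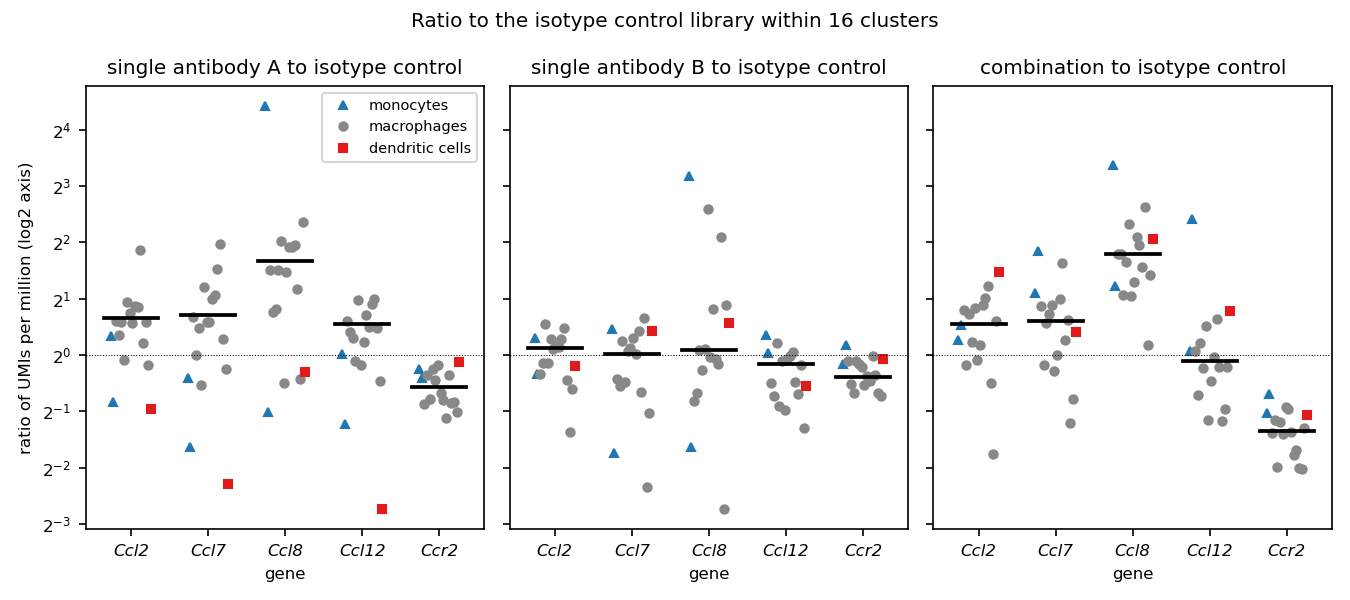
Ratio of UMIs per 1000000 to the isotype control library (vertical axis, log2) for the 5 genes in 16 clusters of monocytes, macrophages and dendritic cells, in 3 panels for the other libraries; the bars give the ratio over all these cells. In the combination, Ccr2 lies below 1 in all 16 clusters and Ccl8 above 1 in all 16, while Ccl12 lies on both sides of 1.

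Monocytes taken alone had a Ccr2 ratio of 0.556 (0.539 to 0.574) in the combination, against 0.377 (0.371 to 0.382) in macrophages and 0.475 (0.423 to 0.532) in dendritic cells. Cluster 5 made up 502 of 1058 monocytes in isotype control and 446 of 666 in the combination, and the rest were cluster 8. Within these clusters the Ccr2 ratios were 0.491 and 0.617. T cells had a Ccr2 ratio of 0.492 (0.466 to 0.518) in the combination. Their levels were 530.4, 264.7, 508.8 and 260.8 CPM in isotype control, single antibody A, single antibody B and the combination. In T cells with little macrophage RNA they were 509, 238, 401 and 283 CPM, lowest in single antibody A. NK cells with ILC1 stood apart, with Ccr2 ratios of 1.08 (1.03 to 1.14) in the combination, 1.04 in single antibody A and 1.11 in single antibody B. With 1 library per group the difference between these classes was not tested. The border between monocytes and macrophages depended on the clustering, and their separate ratios were not recomputed for other clusterings.

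Outside macrophages the ligands went partly the same way as in macrophages and partly not. Monocytes of the combination had more Ccl2 (234 against 169 CPM) and more Ccl8 (18.8 against 2.89 CPM) than those of isotype control. Macrophages of the combination also had more of both. In monocytes Ccl7 was 90.7, 67.8, 131 and 249.7 CPM in isotype control, single antibody A, single antibody B and the combination, a ratio of 2.75 (2.55 to 2.97) in the combination. In single antibody B 1 cell held 362 of the 691 UMIs, and without the top cell of each library the levels were 80.9, 55.0, 62.5 and 209 CPM, so that single antibody B lay below isotype control. Nonclassical monocytes of cluster 8, led by Ace and Adgre4, had 29.6, 12.6, 30.3 and 157 CPM of Ccl12, a ratio of 5.31 in the combination. One cell of the combination held 153 of the 424 UMIs, and without the top cell of each library the level was 102 CPM in the combination and at most 24.7 CPM in the others. In mast cells and basophils Ccl2 did not differ beyond counting error between the combination and isotype control, with a ratio of 0.984 (0.832 to 1.16). The mast cell cluster 24 was 32 of 65 of these cells in isotype control and 23 of 34 in the combination, and within it the Ccl2 ratio was 0.836 (0.707 to 0.988). In the class as a whole Ccl7 had a ratio of 0.705 (0.570 to 0.869). All of its Ccl7 UMIs lay in cluster 24, 281 in isotype control and 134 in the combination. This class ratio thus also holds the larger part of cluster 24 in the combination. In stromal or tumor cells the Ccl2 ratio was 1.97 (1.86 to 2.08), with the single cells of high Ccl2 named above among them.

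Levels can differ because more cells hold a gene or because each holds more. At 6899 UMIs per cell, 71.2% (70.0 to 72.5) of monocytes, macrophages and dendritic cells held a Ccr2 UMI in isotype control, 59.9% in single antibody A, 59.2% in single antibody B and 49.1% (47.7 to 50.6) in the combination. Without drawing down these shares were 76.9%, 67.1%, 66.3% and 60.2%. For Ccl8 the shares were 9.22%, 18.4%, 9.64% and 21.4%, and without drawing down 13.7%, 24.7%, 15.3% and 30.4%. Those of Ccl2 were 42.5% (41.1 to 43.9), 48.8%, 42.8% and 43.0% (41.6 to 44.5). The Ccl2 shares of isotype control and the combination lay within each other's intervals, although the Ccl2 level of the combination was 1.46 times as high. As a background, 2.21% to 4.48% of NK cells with ILC1 in isotype control and the combination held a Ccl2 UMI at 2121 UMIs per cell, and their Ccl8 share was 0.84% to 0.901%. Their median depth was 4475 and 5916 UMIs, against 14423 and 19754.5 in monocytes, macrophages and dendritic cells.

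**Figure D5:**
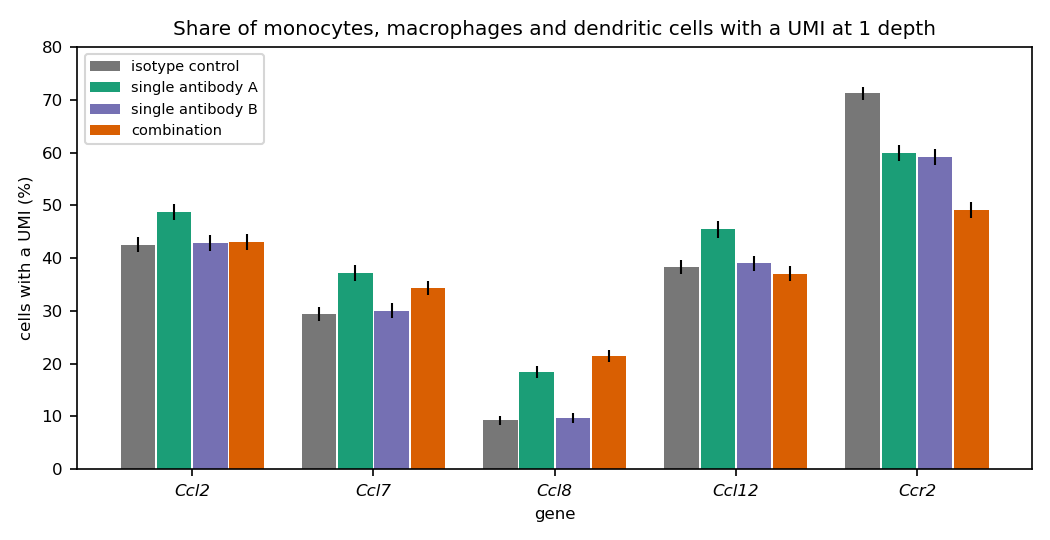
Percent of monocytes, macrophages and dendritic cells with a UMI of each gene after drawing each cell down to 6899 UMIs, in the 4 libraries, with exact binomial intervals that cover counting error only. Ccr2 falls from 71.2% in isotype control to 49.1% in the combination, Ccl8 is at 18.4% and 21.4% in single antibody A and the combination against 9.22% and 9.64%, and the bars of Ccl2 are at similar heights.

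A list of 7 genes held receptors that share ligands with CCR2 and atypical chemokine receptors, and 3 of them reached 10 CPM in monocytes, macrophages and dendritic cells. Of these 3, 1 was higher and 0 lower in the combination by 1.5 times or more, against 3.66% and 3.11% of all genes. Ccrl2, an atypical receptor that presents chemerin, had 82.4, 115, 70.5 and 129 CPM in isotype control, single antibody A, single antibody B and the combination, a ratio of 1.57 in the combination. It was far higher in neutrophils, with 936 to 2460 CPM. Ccr1, a receptor of several CC chemokines, had 301, 320.1, 284 and 290.4 CPM, a ratio of 0.966 in the combination. In monocytes alone its ratio was 1.37, on the other side of 1 from that of Ccr2. By class, Ccr1 was highest in neutrophils, with 998 to 1412 CPM. Ccr3, the eotaxin receptor, was at most 48.5 CPM in any class and 1.77 CPM or less in monocytes, macrophages and dendritic cells. Ackr1, a chemokine scavenger, had 2 to 8 UMIs in mast cells and basophils of each library, and Ackr1, Ackr2 and Ackr4 were under 1 CPM in monocytes, macrophages and dendritic cells.

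Of 10 other CC chemokines 8 reached 10 CPM in the same cells, and in the combination 5 were higher and 0 lower by 1.5 times or more, with a median ratio of 2.03 against 0.928 over all genes, of which 3.66% were higher and 3.11% lower. Ccl5, a T cell and NK cell chemokine, had 380 CPM in isotype control and 1407 in the combination. How much of the Ccl5 in these cells was lymphocyte RNA was not tested. Ccl24, an eotaxin, had 20.5 and 75.2 CPM, a ratio of 3.66. The ligands of CCR4, Ccl22 and Ccl17, had ratios of 2.61 and 2.28, and Ccl6 had 1.79. Of 15 genes that induce Ccl2 or control its RNA 11 could be compared, and 4 were higher and 0 lower against the same shares, with a median ratio of 1.43. Among those higher were Irf1 (1.83), a transcription factor of the interferon response, Nfkbia (1.72), the inhibitor of NF-kB, and the cytokine Il1b (1.62). Of 8 genes of CCR2 signalling, all compared, 0 were higher and 2 lower against the same shares, with a median ratio of 0.838: Rgs1 (0.610) and Rgs2 (0.456), which turn off G protein signals. In single antibody A, 3 of the 8 CC chemokines were higher by 1.5 times or more and 0 lower. Those higher were Ccl24 (3.21), Ccl17 (1.55) and Ccl5 (1.54), against 0.54% of all genes higher and 0.701% lower. In single antibody B, 0 of the 8 were higher, against 0.597% of all genes. There 1 was lower, Ccl5 with a ratio of 0.539, against 2.1%.

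The genes most alike to each of the 5 were found over 9 classes, the mixed T cell and macrophage cluster among them, in 4 libraries, 36 points. They were taken among 8367 genes that reached 50 CPM, by the Pearson correlation of log2(CPM + 1). For Ccl2 these were Rusc2 (0.936), Hgf, which encodes hepatocyte growth factor (0.900), Ccl7 (0.898), Slc6a8 (0.873) and Psd3 (0.857). For Ccl7 they were Ccl2 (0.898), Psd3 (0.881), Rusc2 (0.862), Fblim1 (0.835) and Galc (0.828). Those of Ccl12 were the macrophage genes Siglec1 (0.942), Abca1 (0.939), Ctsb (0.927), Msr1 (0.922) and C1qb (0.920). For Ccl8 they were Gbp2b (0.836), Cndp2 (0.822), Acp2 (0.820), Folr2 (0.813) and Mmp13 (0.811). Ccr2 was most like Itga4, a leukocyte integrin chain (0.920), Cd52 (0.918), Dok2 (0.916), Abi1 (0.915) and Prex1 (0.914). Points of a class share its cell type and points of a library share its treatment, so these values describe the pattern over classes.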

How the data were processed

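The authors deposited, for each library, the UMI counts that Cell Ranger made per gene and cell, as raw counts without normalization, of barcodes called as cells. The submitters' processing notes give Cell Ranger 7.0.0 and mm10, and the file headers give 7.2.0. The counts of 19059 genes carry no replicate error, since there is 1 library per group.

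From these counts, cells were kept from 500 detected genes upwards and up to 10% mitochondrial UMIs. Scrublet in scanpy 1.11.5 called only 1 to 3 doublets per library, so in each library the top 5% of cells by doublet score were removed. SCTransform (sctransform 0.4.2), integration on 3000 genes, 30 principal components and clustering at resolution 0.8 used Seurat 5.3.0 in R 4.3.3. All 5 genes of this report were among the top-ranked genes and were left out of the features. Names came from marker lists, from how many cells held them and how many stood in the 10 genes that led a cluster. Clusters led by 2 or more T cell markers and none of macrophages, yet with macrophage markers detected, were set apart as mixed, and cluster names may differ from those of the study. That naming rule was set after the clusters were seen. The markers Ly6c2 and Ccnb1 were not in the probe set.

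Levels are summed UMIs per 1000000 UMIs of a class (CPM). Intervals are exact Poisson for levels, conditional exact binomial for ratios and Clopper-Pearson for shares, at 95%, for counting error only. Shares used cells drawn down 100 times to the 10th percentile of UMIs of their class. No test, p-value or standard error was computed. Ratios were checked on simulated counts with Poisson error only, which does not cover UMIs gathered in few cells. The rest used Python 3.11.15, numpy 2.4.6, scipy 1.17.1 and pandas 2.3.3. Gene positions are from GENCODE M21 on GRCm38. The named genes are the 5 genes, the 5 genes most alike to each, and from the 4 lists those past a ratio of 1.5 in the combination, with the receptors in every class. Cluster genes, Ptprc and the genes of the lists past 1.5 in single antibody A or B were named after their values were seen. Some genes of the lists are not reported here. The members and lists were chosen with earlier results of these data known. Alternatives were other resolutions, no integration, the 5 genes kept among the features, stricter cell filters, more doublets left out, other scalings, no dendritic cells, other minimums of UMIs, a fixed mix of clusters, the mixed cluster added and the cell with the most UMIs of a gene left out, the last 3 chosen after seeing the data.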

Additional observations from a re-analysis of the deposited data

Results flagged for a closer look

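Each of the 5 genes was compared with isotype control in single antibody A, single antibody B and the combination. In 4 of these comparisons, in CPM, monocytes and macrophages lay on opposite sides of isotype control, both beyond counting error. No share of all genes that do so is set beside this count. With 1 library per group the difference between the classes was not tested. Nor were these ratios recomputed for other clusterings, on which the border between monocytes and macrophages depended. In single antibody A the ratio of Ccl7 to isotype control was 0.748 in monocytes and 1.62 in macrophages. In single antibody B it was 1.44 and 0.95, but 1 monocyte held 362 of the 691 UMIs, and without the top cell of each library the monocyte ratio was 0.774, on the same side as macrophages. Ccl12 had ratios of 1.52 and 0.84 in single antibody B, and of 1.65 and 0.883 in the combination. In monocytes, macrophages and dendritic cells the median ratio of all genes was 0.983 in single antibody B and 0.928 in the combination. With size factors Ccl12 of the combination was 1.01 in those cells, so no direction is given for it in macrophages. Cluster 5, the richer in Ccl12 of the 2 monocyte clusters, was 502 of 1058 monocytes in isotype control, 274 of 447 in single antibody B and 446 of 666 in the combination. With the mix of monocyte clusters held as in isotype control Ccl12 of monocytes had ratios of 1.25 and 1.60 in these libraries, and without the top cell of each library 1.30 and 1.43.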

How the results depend on the processing

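No paired analysis was possible because each group had 1 library, and for the same reason no replicate could be left out and no test could be run. Each ratio between the combination and isotype control in monocytes, macrophages and dendritic cells was recomputed under 11 alternatives for each of the 5 genes, and 36 of 55 values stayed within the counting interval of the reported value. Size factors by the median of ratios gave 1.58 for Ccl2, 1.65 for Ccl7, 3.75 for Ccl8, 0.427 for Ccr2 and 1.01 for Ccl12, which crossed 1. They set the median of all genes 0.12 higher on the log2 scale. With the mix of clusters held as in isotype control the ratios were 1.49, 1.58, 3.06, 0.420 and 0.972 for Ccl2, Ccl7, Ccl8, Ccr2 and Ccl12. The mean over cells gave 1.41 for Ccl2 and 0.448 for Ccr2. Leaving out 10% of the cells by doublet score gave 1.56 for Ccl7, 0.912 for Ccl12 and 0.386 for Ccr2. Adding the mixed cluster gave 1.43 for Ccl2, 3.12 for Ccl8 and 0.402 for Ccr2, and no integration gave 1.43 for Ccl2. The ratio of Ccl8 in single antibody B was 0.968 with a fixed mix and 0.960 with the mixed cluster, below 1 where the reported value was above it. The cause was not tested. Ccl2 of the combination and Ccl12 of single antibody A passed 1.5 only with size factors. The Ccl7 ratio of monocytes in single antibody B fell from 1.44 to 0.774 without the cell richest in Ccl7 in each library, an alternative chosen after seeing the data. Depth sets the counting intervals.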
